A study of Mus musculus with 18 samples.

Results

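The genes described here encode proteins of the splicing machinery and its regulators: every gene of the deposited expression table that the table types as protein_coding and whose symbol starts with *Srsf*, *Snrp*, *Sf3a*, *Sf3b* or *Hnrnp*. The rule finds 46 of the 34896 genes in the table, 19580 of which are protein_coding. They are 9 SR proteins, 7 Sm core proteins, 2 further proteins of the U1 and U2 particles, 3 SF3A subunits, 6 SF3B subunits and 19 hnRNPs.

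Splicing removes introns from pre-mRNA and joins the exons. It is carried out by the spliceosome, which assembles on each intron from small nuclear ribonucleoproteins (snRNPs), particles of a small RNA and proteins built around a ring of Sm proteins. U1 recognises the start of the intron, and U2, with the complexes SF3A and SF3B, the branch point near its end. SR proteins mostly bind exons and favour their inclusion, hnRNPs coat nascent RNA and often repress splice sites. Regulated intron retention is a known feature of granulocyte maturation.

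The study asked how the transcriptional repressor GFI1 works with CHD4, the ATPase of the chromatin remodelling complex NuRD, while granulocyte precursors mature. All cells came from the bone marrow of C57BL/6 mice aged 6 to 12 weeks and were wild type except for CHD4 in *Gfi1*-/- cells. RNA-seq covers 3 stages with 3 libraries each: granulocyte-monocyte progenitors (GMPs, lineage-negative, cKIT+, SCA−, CD16/32+, CD34+), pre-neutrophils (preNeu, MAC-1+, GR1+, cKIT+, CXCR4+) and mature neutrophils (matNeu, MAC-1+, GR1+, CXCR2+). Peak lists from 1 library each were deposited for CHD4 in wild type and *Gfi1*-/- GMPs, for the histone mark H3K4me2 in wild type cells of the 3 stages, and for open chromatin (ATAC-seq) in wild type preNeu and matNeu cells.

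Expression was deposited as TPM, a transcript level per gene that is corrected for transcript length and scaled to the same total in every library. A few very abundant transcripts therefore lower the TPM of all others: the 10 most abundant genes took 9.15% to 9.78% of TPM in GMPs, 24.1% to 28.3% in preNeu cells, where *Ngp* led, and 12.7% to 15.9% in matNeu cells. TPM keeps no read depth, so the depth of each library is unknown. Libraries of the same stage had Pearson correlations of log2(TPM + 1) of 0.974 to 0.986 across genes, and libraries of different stages 0.773 to 0.923. In bulk RNA, fewer cells of a type and less RNA per cell cannot be told apart. The labels do not say whether the 3 libraries of a stage come from separate animals, so p-values measure the spread between libraries, which may be technical.

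The cell type field of the labels differs from the title for all 9 RNA-seq libraries, and the groups follow the titles. Marker genes separated the stages as titled. Summed over 8 GMP genes such as *Mpo*, the most abundant, and *Elane*, levels were 45670.2, 46075 and 47615 TPM in GMPs, 8343, 9390.1 and 9252 TPM in preNeu cells and 14.0, 40.3 and 18.3 TPM in matNeu cells. The 8 genes of the preNeu list, led by the granule gene *Ngp*, summed to 191, 172 and 186 TPM in GMPs, 175968, 158975 and 150812 TPM in preNeu cells and 7049, 8832 and 5918 TPM in matNeu cells. The matNeu list, led by *Retnlg* and with *Cxcr2* in it, summed to 863, 738 and 744 TPM in GMPs, 1224, 1397 and 1434 TPM in preNeu cells and 43355, 42951 and 39414 TPM in matNeu cells. Each list was highest in every library of its own stage, with no overlap between stages. *Mki67*, a proliferation marker counted in the preNeu list, was at 72.4, 73.2 and 64.3 TPM in GMPs, 186, 194 and 238 TPM in preNeu cells and 4.73, 3.30 and 5.56 TPM in matNeu cells. It was highest in preNeu cells and lowest in matNeu cells. Its part in the results below was not tested.

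Markers of other cell types also differed between stages. The 6 monocyte genes, led by *F13a1*, summed to 1819, 1535 and 1487 TPM in GMPs, 30.2, 29.6 and 56.9 TPM in preNeu cells and 317, 259 and 363 TPM in matNeu cells. The 6 eosinophil, basophil or mast cell genes, led by *Prg2*, summed to 1422, 1517 and 1256 TPM in GMPs, 186, 129 and 158 TPM in preNeu cells and 46.9, 38.1 and 50.8 TPM in matNeu cells. Both lists were highest in GMPs. In matNeu cells the monocyte sum was mostly *Csf1r*, which was higher there, at 309, 253 and 349.6 TPM, than in GMPs, at 232, 192 and 188 TPM. The other sum was in matNeu cells mostly *Siglecf*, at 45.1, 31.2 and 48.7 TPM, against 30.8, 46.5 and 58.6 TPM in GMPs. The study describes SiglecF in the matNeu gate in differing ways, so it is left out of the gate above. The 6 macrophage genes, led by *Vcam1*, summed to 38.7, 45.6 and 42.6 TPM in GMPs, 248, 299 and 373 TPM in preNeu cells and 102, 101 and 145 TPM in matNeu cells and were highest in preNeu cells. *Adgre1* of this list was highest in matNeu cells, at 75.7, 78.7 and 97.0 TPM, most of the sum there. Among B cell genes, *Igkc* was at 0 TPM in all GMP libraries, 21.1, 30.9 and 29.2 TPM in preNeu cells and 52.3, 206 and 127 TPM in matNeu cells. It was highest in matNeu cells, without overlap. *Cd79b* was highest in GMPs, at 93.7, 77.9 and 87.6 TPM, against 17.3, 27.4 and 18.5 TPM in preNeu cells and 27.3, 25.1 and 53.9 TPM in matNeu cells. T or NK cell genes, led by *Cd3d*, summed to 3.76, 2.81 and 3.43 TPM in GMPs, 2.45, 3.04 and 0.768 TPM in preNeu cells and 11.3, 14.3 and 9.09 TPM in matNeu cells. The sum was highest in matNeu cells, without overlap, while *Cd3e*, *Klrb1c* and *Trac* were below 1 TPM in every library. Among erythroid genes, *Hba-a2* was at 0, 1.19 and 1.09 TPM in GMPs, 5.39, 11.6 and 17.02 TPM in preNeu cells and 1.19, 18.03 and 13.3 TPM in matNeu cells. *Hbb-bs* was highest in preNeu cells, at 9.06, 12.2 and 12.6 TPM, against 2.01, 1.93 and 3.93 TPM in GMPs and 3.74, 6.70 and 7.46 TPM in matNeu cells. *Klf1* alone of the genes given here was highest in GMPs, with 3.72, 5.12 and 6.84 TPM in GMPs and below 1 TPM in every preNeu and matNeu library. The 4 megakaryocyte genes, led by *Itga2b*, summed to 35.4, 50.2 and 48.4 TPM in GMPs, 2.98, 5.76 and 7.13 TPM in preNeu cells and 7.93, 5.58 and 4.94 TPM in matNeu cells, with *Ppbp* below 1 TPM throughout. The part of these cells in the results below was not tested.

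Together the 46 genes summed to 13115, 13378 and 12338 TPM in the GMP libraries, 7859.7, 8129 and 8593 TPM in the preNeu libraries and 4222, 4047 and 4953 TPM in the matNeu libraries. Every GMP library lay above every preNeu library, and every preNeu library above every matNeu library. The means ± SD (n = 3 libraries) were 12944 ± 541, 8194 ± 371 and 4407 ± 481 TPM, or 1.29%, 0.819% and 0.441% of all TPM. With libraries rescaled by their median ratio, which lessens the weight of the few abundant transcripts and divides each library by a factor, from 0.731 for a matNeu library to 1.39 for a GMP library, the means were 9508, 8106 and 5758 TPM, in the same order.

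Individual genes were tested with limma, a linear model that shares its estimate of spread across genes, on log2(TPM + 1). The 13061 features at 1 TPM or more in at least 3 of the 9 libraries were tested, and a gene is called higher or lower when its p-value, adjusted over all of them by the method of Benjamini and Hochberg, is at most 0.05. Adding 1 before the logarithm understates changes of genes near or below 1 TPM. Of the 46 members, 44 were tested and 41 of these were at 1 TPM or more in all 9 libraries. The other 3, *Snrpd1*, *Snrpd2* and *Snrpf*, were below 1 TPM in matNeu libraries only. *Srsf12* reached at most 0.195 TPM and *Snrpn* at most 0.174 TPM, and neither was tested. The members are abundant genes, for which a change is easier to call: 61.4% of those tested averaged 100 TPM or more in GMPs, against 16.1% of all features tested.

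From GMPs to preNeu cells, 29 of the 44 tested members fell, 2 rose and 13 were not called, while 44.3% of all features were called lower and 14.7% higher. From preNeu to matNeu cells, 35 fell, 2 rose and 7 were not called, against a background of 39.8% lower and 22.9% higher. For matNeu cells against GMPs, which shares its libraries with both other comparisons, 38 were lower and 2 higher, against 54.1% lower and 22.8% higher. In percent of those tested, members called lower made up 65.9%, 79.5% and 86.4% in these comparisons.

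The median log2 change of tested members was −0.82, −1.34 and −2.05 in the order above, and that of all features −0.52, −0.32 and −0.92. The members' median minus that of all features was −0.30, −1.02 and −1.12. Rescaling by the median ratio moves the median of all features by 0.38, 0.29 and 0.71, and leaving the 50 most abundant features out of TPM moves it by 0.34, −0.17 and 0.17. Of all features called, the share called higher went from 24.98% to 41.7%, from 36.5% to 48.5% and from 29.6% to 45.1% under the median ratio, and of the members called from 6.45% to 16.0%, from 5.41% to 17.1% and from 5% to 13.9%. Under the median ratio, 21 members were lower and 4 higher in preNeu cells against GMPs (all features, 30.3% and 21.7%). In matNeu against preNeu cells 29 were lower and 6 higher (all features, 33.4% and 31.4%), and in matNeu cells against GMPs 31 were lower and 5 higher (all features, 42.1% and 34.5%). In percent of those tested, members called lower made up 47.7%, 65.9% and 70.5% there, above the share of all features in each comparison as on the deposited scale. Single members are given on the deposited scale. The calls lost under the median ratio were, in preNeu cells against GMPs, those of *Hnrnpa2b1*, *Hnrnpa3*, *Hnrnph3*, *Hnrnpk*, *Hnrnpl*, *Snrpd1*, *Snrpg* and *Srsf5*. In matNeu against preNeu cells they were those of *Hnrnpa0*, *Hnrnpdl*, *Hnrnph3*, *Hnrnpk*, *Hnrnpul2* and *Srsf11*. In matNeu cells against GMPs they were those of *Hnrnpc*, *Hnrnpul1*, *Hnrnpul2*, *Sf3b5*, *Sf3b6* and *Snrpc*, while *Hnrnpl* turned from lower to higher.

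Taken step by step, 24 members fell at both steps, 9 fell only at the second and 4, *Hnrnpc*, *Hnrnpl*, *Sf3b5* and *Sf3b6*, fell only at the first, where the calls alone and not the difference between steps were tested. *Hnrnpll* and *Hnrnpul1* rose and then fell, *Srsf5* fell and then rose, and *Sf3b1* was not called at the first step and rose at the second. *Hnrnph2*, *Sf3b2* and *Snrpc* were called at neither. Means were lower at each successive stage for 34 of the 44, lowest in preNeu cells for 5 (*Hnrnpc*, *Hnrnph2*, *Hnrnpl*, *Sf3b1* and *Srsf5*) and highest there for 5 (*Hnrnpll*, *Hnrnpul1*, *Hnrnpul2*, *Srsf4* and *Srsf9*). The share of all features with each of these patterns was not counted, so none is shown to be particular to the members. The median of all features also fell at both steps (−0.52 and −0.32). Tested members with a mean of at least 100 TPM numbered 27, 18 and 10 in GMPs, preNeu cells and matNeu cells, and those below 10 TPM numbered 1, 4 and 13.

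**Figure D1:**
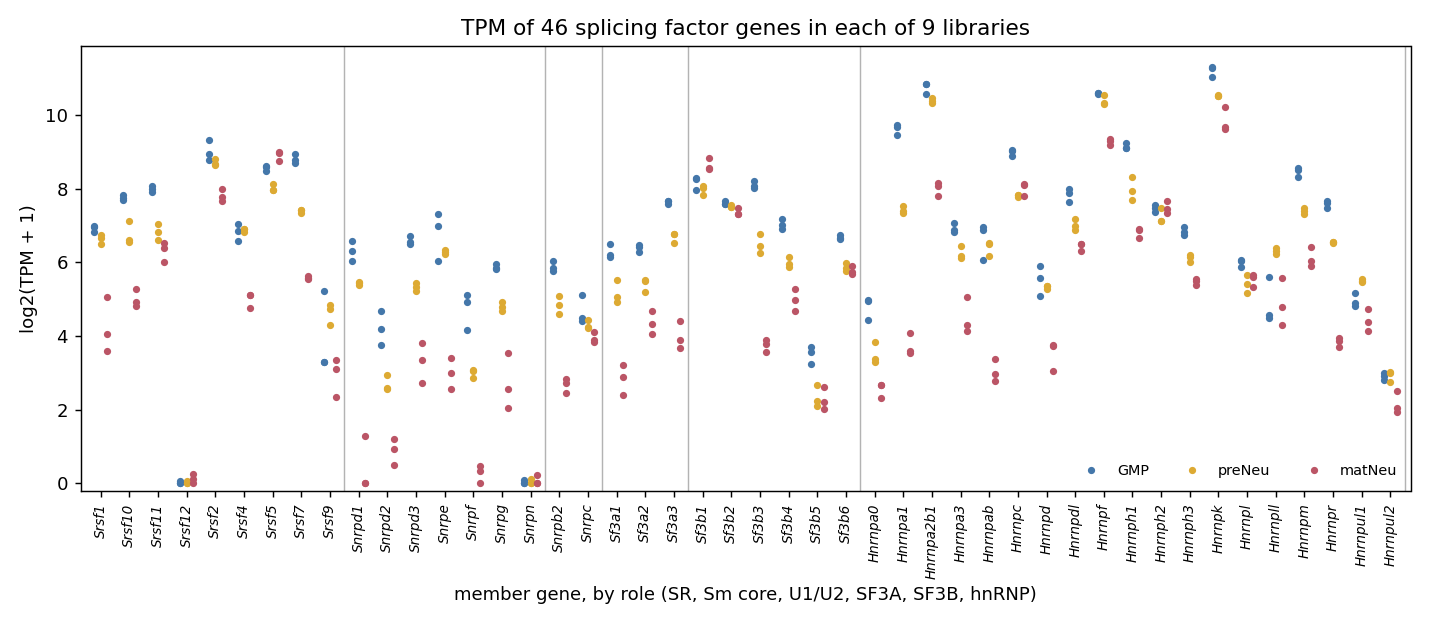
Level of each of the 46 genes in each of the 9 libraries, as log2(TPM + 1), grouped by role from SR proteins to hnRNPs, with 1 point per library and 3 libraries per stage. For 34 of the 44 tested genes the means fall at each stage, while *Srsf5* and *Sf3b1* are highest in matNeu libraries and *Srsf12* and *Snrpn* stay near 0.

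SR proteins carry RNA recognition domains and a tail rich in serine and arginine, bind exonic enhancers and help U1 and U2 onto nearby splice sites. Their 9 genes summed to 2078 ± 113 TPM in GMPs, 1309 ± 69.6 TPM in preNeu cells and 921 ± 77.2 TPM in matNeu cells (mean ± SD, n = 3, as for all means here). Of 8 tested, 4 fell from GMPs to preNeu cells, 50% against 44.3% of all features, and none rose (3 fell and 1, *Srsf4*, rose under the median ratio). From preNeu to matNeu cells 7 fell, 87.5% against 39.8% of all features, and 1, *Srsf5*, rose (6 and 1 under the median ratio). Those called lower under the median ratio were 37.5% and 75% at the 2 steps, against 30.3% and 33.4% of all features. Among the 8 tested, *Srsf7* and *Srsf10* fell most over both steps. *Srsf7*, an SR protein with a zinc knuckle, went from 449 ± 37.5 TPM in GMPs to 167 ± 4.93 and 46.9 ± 1.41 TPM in preNeu and matNeu cells. *Srsf10* went from 216 ± 11.3 to 110.2 ± 25.3 and 31.4 ± 5.54 TPM. *Srsf3* and *Srsf6*, SR genes of another type in the table, fell further from GMPs to matNeu cells (log2 change −4.57 and −3.47, against −3.23 for *Srsf7*). *Srsf1*, the classic member of the family, fell at the second step only, from 98.3 ± 8.74 to 19.7 ± 11.1 TPM. The fall of *Srsf11* at the second step was slight (log2 change −0.52 with SE 0.16, adjusted p = 0.0142 by limma), and it was not called without matNeu replicate 2 (−0.37, adjusted p = 0.0528) or preNeu replicate 2 (−0.42, adjusted p = 0.0623), nor with median-ratio scaling (−0.12).

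*Srsf2* (ENSMUSG00000034120, chr11:116849901-116853094, minus strand), whose protein recognises exonic enhancers, had the highest mean of the role over the 9 libraries, with 494, 444 and 645 TPM in the GMP libraries, 397, 452 and 404 TPM in the preNeu libraries and 203, 218 and 253 TPM in the matNeu libraries. The GMP and preNeu libraries overlapped, and all 3 matNeu libraries lay below both. It was not called at the first step (log2 change −0.32 with SE 0.15, adjusted p = 0.0873 by limma), except without GMP replicate 2 (−0.43, adjusted p = 0.0382), and fell at the second (log2 change −0.90 with SE 0.15, adjusted p = 0.000325 by limma).

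*Srsf5* (ENSMUSG00000021134, chr12:80945504-80950507, plus strand), an SR protein that promotes exon inclusion, went the other way at the second step. It was at 392, 359 and 386 TPM in the GMP libraries, 251, 250.1 and 281 TPM in the preNeu libraries and 499.8, 433 and 509 TPM in the matNeu libraries. All preNeu libraries lay below all GMP libraries, and all matNeu libraries above both. Its log2 change was −0.54 with SE 0.11, adjusted p = 0.00134 by limma, from GMPs to preNeu cells, and 0.88 with SE 0.11, adjusted p = 3.14e-05 by limma, from preNeu to matNeu cells, where the mean was 1.84-fold higher. The first fall was not called under the median ratio (−0.11) or without the top 50 features (−0.14). Against GMPs the rise was small on the deposited scale (log2 change 0.34 with SE 0.11, adjusted p = 0.0133 by limma) and larger under the median ratio (1.17), and without GMP replicate 2 it was 0.30 with an adjusted p of 0.0507 by limma. Without the variance trend it was not called either, with an adjusted p of 0.0646 by limma. Its share of the summed TPM of the role went from 18.2% in GMPs to 19.9% in preNeu cells and 52.2% in matNeu cells. That sum leaves out *Srsf3* and *Srsf6*, of another type in the table. With them it was 3405.5, 2093 and 993 TPM by stage instead of 2078, 1309 and 921 TPM, so the share was smaller at each.

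*Srsf9* (ENSMUSG00000029538, chr5:115327177-115333080, plus strand), a short SR protein that can act at exons and introns, had libraries that differed within a stage, with 8.80, 8.74 and 36.1 TPM in the GMP libraries, 18.8, 25.8 and 27.5 TPM in the preNeu libraries and 4.10, 9.27 and 7.58 TPM in the matNeu libraries. GMP replicate 3 lay above all other libraries, while the other 2 GMP libraries lay below all preNeu libraries, so that the groups overlapped. It was not called from GMPs to preNeu cells (log2 change 0.70 with SE 0.48, adjusted p = 0.239 by limma), and without GMP replicate 3 the change was 1.34 with an adjusted p of 0.0065 by limma. At the second step it fell (log2 change −1.69 with SE 0.48, adjusted p = 0.0104 by limma), with all matNeu libraries below all preNeu libraries. Its lower mean in matNeu cells than in GMPs was not called in the fit of all libraries. It was called without GMP replicate 1 (−1.31, adjusted p = 0.0372) or 2 (−1.32, adjusted p = 0.0396), and with the replicate number as a block. The other 2 GMP libraries, at 8.80 and 8.74 TPM, lay within the range of the matNeu libraries. The difference thus rests largely on GMP replicate 3. *Srsf4*, with a long serine and arginine tail, had 113 ± 17.9 TPM in GMPs and 117 ± 3.60 TPM in preNeu cells, not called on the deposited scale and called higher under the median ratio (0.49) and without the top 50 features (0.46), before it fell to 31.2 ± 4.39 TPM.

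Sm proteins form the ring around the RNA of the U1, U2, U4 and U5 particles, 1 copy of each protein per ring. Their 7 genes summed to 394 ± 83.5 TPM in GMPs, 198 ± 10.2 TPM in preNeu cells and 24.3 ± 10.6 TPM in matNeu cells, 16.2-fold lower in matNeu cells than in GMPs. The sum lacks *Snrpb*, an Sm gene of another type in the table. With it the sums were 1015.8 ± 39.3, 538 ± 79.3 and 121 ± 29.3 TPM, 8.41-fold lower in matNeu cells than in GMPs. Of the 6 Sm members tested, 5 fell at the first step (3 under the median ratio) and all 6 fell at the second under either scaling. In percent these are 83.3% and 100%, against 44.3% and 39.8% of all features. Under the median ratio they are 50% and 100%, against 30.3% and 33.4%. Their median log2 change from GMPs to matNeu cells was −3.55, the lowest of the 6 roles. With the genes of another type in the table counted, it was −3.32, and those of the U1 and U2 genes (−4.07) and of SF3A (−3.45) were lower. *Snrpd2*, *Snrpd3* and *Snrpg* fell at both steps, *Snrpg* at the first neither under the median ratio (−0.67) nor without the top 50 features (−0.70). *Snrpd3* went from 95.8 ± 8.35 to 39.3 ± 3.25 and 9.27 ± 3.70 TPM.

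*Snrpe* (ENSMUSG00000090553, chr1:133603871-133610291, minus strand) had the highest mean of the role, with 64.5, 157 and 125 TPM in the GMP libraries, 79.7, 76.6 and 74.4 TPM in the preNeu libraries and 9.64, 6.96 and 4.93 TPM in the matNeu libraries. GMP replicate 1 lay below all preNeu libraries and the other 2 GMP libraries above them, and all matNeu libraries lay far below both stages. The first step was not called (log2 change −0.49 with SE 0.31, adjusted p = 0.196 by limma), except without GMP replicate 1 (−0.86, adjusted p = 0.0132), and the level fell at the second with a log2 change of −3.29 with SE 0.31, adjusted p = 4.11e-06 by limma.

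*Snrpd1* (ENSMUSG00000002477, chr18:10617775-10642079, plus strand) was at 65.3, 94.9 and 78.8 TPM in the GMP libraries, 43.4, 41.2 and 42.1 TPM in the preNeu libraries and 1.44, 0 and 0 TPM in the matNeu libraries. The stages did not overlap, and 2 of the 3 matNeu libraries listed it at 0. Its log2 change of −5.00 with SE 0.33, adjusted p = 2.62e-07 by limma, from preNeu to matNeu cells was the lowest of all tested members. The smaller fall from GMPs to preNeu cells (log2 change −0.88 with SE 0.33, adjusted p = 0.0379 by limma) was not called under the median ratio (−0.46), without the top 50 features (−0.49), with 0.1 added before the logarithm (−0.90, adjusted p = 0.413) or with no filter (adjusted p = 0.0748). Nor was it called without GMP replicate 2 (−0.75, adjusted p = 0.123), GMP replicate 3 (−0.88, adjusted p = 0.0802), or preNeu replicate 1 (−0.90, adjusted p = 0.0784), 2 (−0.87, adjusted p = 0.0868) or 3 (−0.88, adjusted p = 0.0823).

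*Snrpf* (ENSMUSG00000020018, chr10:93583029-93589706, minus strand) was at 16.8, 33.9 and 29.3 TPM in the GMP libraries, 7.43, 6.31 and 7.34 TPM in the preNeu libraries and 0.263, 0.390 and 0 TPM in the matNeu libraries. Every GMP library lay above every preNeu library and these above every matNeu library, 1 of which listed it at 0. It fell at the first step (log2 change −1.73 with SE 0.29, adjusted p = 0.000515 by limma) and at the second (log2 change −2.73 with SE 0.29, adjusted p = 1.28e-05 by limma), the latter with −4.77 when 0.1 instead of 1 was added before the logarithm. A pseudogene nearly identical in sequence held 52.2 ± 5.38 TPM in GMPs, 8.75 ± 8.15 TPM in preNeu cells and 3.45 ± 3.60 TPM in matNeu cells, more than the gene itself at each stage. Summed with this copy, the GMP libraries still lay above the others, while preNeu (17.5, 6.31 and 23.5 TPM) and matNeu libraries (7.45, 3.55 and 0 TPM) overlapped. Which of the copies reads come from was not tested.

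*Snrpc* encodes a U1 protein that steadies its pairing with the start of the intron, and *Snrpb2* a U2 protein. Of these 2, *Snrpb2* (ENSMUSG00000008333, chr2:143063039-143072853, plus strand) had the higher mean, with 53.3, 64.8 and 56.4 TPM in the GMP libraries, 32.8, 27.6 and 23.4 TPM in the preNeu libraries and 6.16, 4.43 and 5.67 TPM in the matNeu libraries. The stages did not overlap, and it fell at the first step (log2 change −1.04 with SE 0.19, adjusted p = 0.00093 by limma) and at the second (log2 change −2.17 with SE 0.19, adjusted p = 2.9e-06 by limma). *Snrpc* went from 25.1 ± 7.31 to 18.7 ± 1.60 and 14.5 ± 1.62 TPM and was called at neither step, except at the second without the top 50 features (−0.58, adjusted p = 0.0436 by limma). Its lower level in matNeu cells than in GMPs (log2 change −0.72 with SE 0.22, adjusted p = 0.0109 by limma) was not called without GMP replicate 3 (−0.50, adjusted p = 0.0525) and had the opposite sign under the median ratio (0.07). Its share of the summed TPM of the pair went from 29.9% in GMPs to 40.3% in preNeu cells and 72.9% in matNeu cells.

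SF3A, a complex of 3 proteins, joins U2 before it binds the branch point. Its genes fell together, in both steps and under both scalings, from a summed 360.0 ± 17.03 TPM in GMPs to 179.5 ± 21.8 TPM in preNeu cells and 41.6 ± 10.4 TPM in matNeu cells. Of all features, 44.3% and 39.8% were called lower at the steps, or 30.3% and 33.4% under the median ratio. *Sf3a3* (ENSMUSG00000028902, chr4:124714776-124732460, plus strand) had the highest mean, with 203, 202 and 193 TPM in the GMP libraries, 90.6, 108 and 108 TPM in the preNeu libraries and 20.3, 11.7 and 13.9 TPM in the matNeu libraries. Its stages were well apart, and its log2 change was −0.96 with SE 0.18, adjusted p = 0.00111 by limma, at the first step and −2.69 with SE 0.18, adjusted p = 3.66e-07 by limma, at the second. *Sf3a1* went from 77.8 ± 10.53 to 35.7 ± 8.44 and 6.35 ± 2.03 TPM. *Sf3a2* fell less at the second step, from 41.4 ± 4.88 to 19.9 ± 4.67 TPM.

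SF3B holds the branch point of the intron in U2. Its 6 subunit genes diverged: their sum was 1003 ± 50.9 TPM in GMPs, 650.4 ± 35.5 TPM in preNeu cells and 670.5 ± 57.2 TPM in matNeu cells on the deposited scale, and 737, 643 and 877 TPM under the median ratio, where matNeu cells were highest. At the first step 4 of 6 fell and none rose, and at the second 2 (*Sf3b3* and *Sf3b4*) fell and 1 (*Sf3b1*) rose. The 66.7% and 33.3% called lower compare with 44.3% and 39.8% of all features. The same numbers fell under the median ratio, where 1 and 2 rose and 30.3% and 33.4% of all features were called lower. *Sf3b5* and *Sf3b6*, both small subunits, fell at the first step and had 4.13 ± 1.10 and 57.7 ± 4.41 TPM in preNeu cells and 3.93 ± 1.07 and 54.1 ± 4.31 TPM in matNeu cells, with overlapping libraries. Against GMPs the lower level of both in matNeu cells was not called under the median ratio (−0.51 and −0.09).

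*Sf3b1* (ENSMUSG00000025982, chr1:54985169-55027481, minus strand), the largest subunit and the one that clasps the branch point, had the highest mean of the role. It was at 306, 313 and 252 TPM in the GMP libraries, 227, 271 and 259 TPM in the preNeu libraries and 379, 373 and 459 TPM in the matNeu libraries. GMP and preNeu libraries overlapped, and every matNeu library lay above all of them. It was not called at the first step (log2 change −0.20 with SE 0.13, adjusted p = 0.221 by limma) and rose at the second (log2 change 0.67 with SE 0.13, adjusted p = 0.00104 by limma), by 1.60-fold in the mean. Against GMPs it was higher in matNeu cells too (log2 change 0.47 with SE 0.13, adjusted p = 0.00684 by limma). The median ratio gave larger changes, 1.08 at the second step and 1.31 against GMPs.

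*Sf3b3* (ENSMUSG00000033732, chr8:110810239-110846787, minus strand), the large scaffold that binds SF3B1, was at 268, 297 and 257 TPM in the GMP libraries, 75.9, 85.9 and 109 TPM in the preNeu libraries and 10.9, 12.8 and 13.8 TPM in the matNeu libraries. The stages did not overlap, and matNeu libraries held less than preNeu libraries by 7.20-fold in the mean. Its log2 change was −1.61 with SE 0.16, adjusted p = 1.43e-05 by limma, at the first step and −2.74 with SE 0.16, adjusted p = 1.15e-07 by limma, at the second. Within the summed TPM of the complex, *Sf3b1* thus went from 28.9% to 38.8% and 60.1% over the stages, and *Sf3b3* from 27.3% to 13.8% and 1.87%. *Sf3b2*, which contacts the RNA before the branch point, had 195 ± 6.62, 183 ± 3.07 and 166 ± 11.7 TPM and was not called in any comparison on the deposited scale, while the median ratio made it higher in all 3 (0.34, 0.25 and 0.60). Without the top 50 features it was called higher at the first step (0.32) and lower at the second (−0.38, adjusted p = 0.00418 by limma). It was also called lower in matNeu cells than in GMPs without matNeu replicate 3 (−0.29, adjusted p = 0.0326), with no filter (−0.23, adjusted p = 0.0387) or with 0.1 added before the logarithm (−0.23, adjusted p = 0.0462). Its direction thus depends on the scaling.

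**Figure D2:**
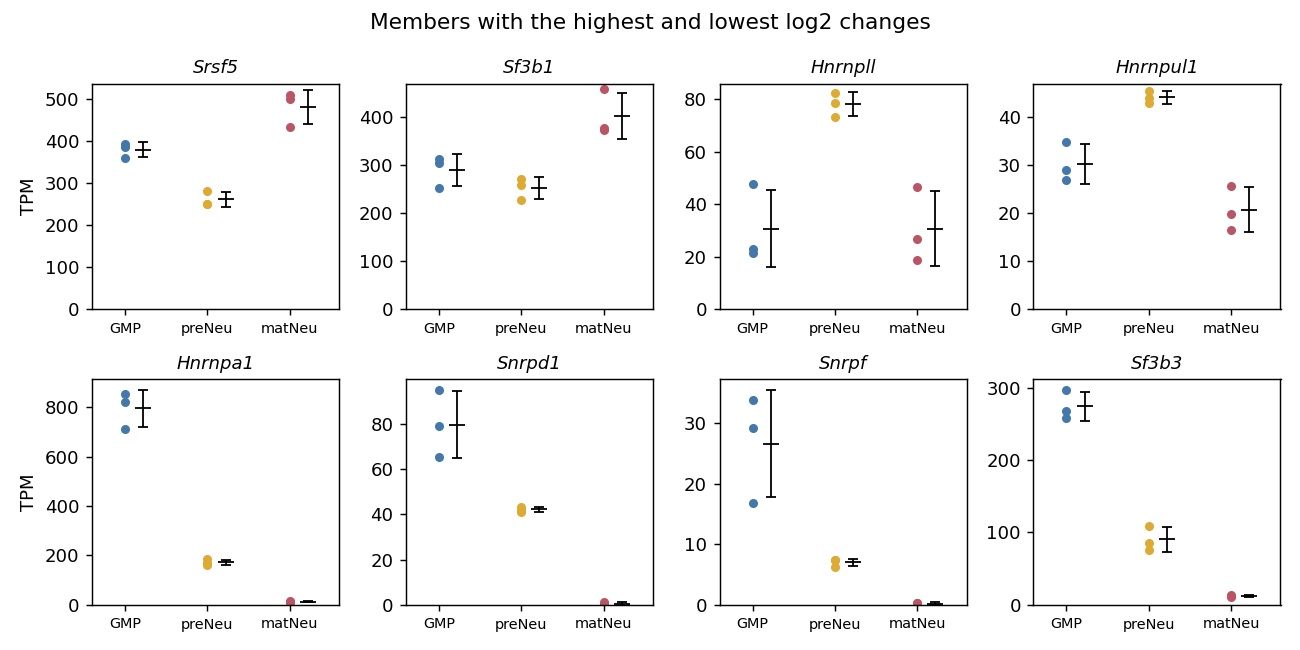
TPM in each library of 8 members with the highest or lowest log2 changes, with points for the 3 libraries of each stage and bars for the mean ± SD on axes that start at 0. *Srsf5* and *Sf3b1* have their highest means in matNeu cells (480.4 and 404 TPM), *Hnrnpll* and *Hnrnpul1* in preNeu cells (78.2 and 44.2 TPM), and the lower row falls at each stage.

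The hnRNPs package nascent RNA and act in splicing, export and stability of mRNA. Their 19 genes held most of the TPM of the set, 9026 ± 590 TPM in GMPs, 5811 ± 273 TPM in preNeu cells and 2730.2 ± 356 TPM in matNeu cells. From GMPs to preNeu cells 12 fell and 2, *Hnrnpll* and *Hnrnpul1*, rose, and under the median ratio 7 fell and the same 2 rose. From preNeu to matNeu cells 16 fell and none rose, whereas under the median ratio 11 fell and 3, *Hnrnpc*, *Hnrnph2* and *Hnrnpl*, rose. Those called lower were 63.2% and 84.2% on the deposited scale, against 44.3% and 39.8% of all features. Under the median ratio they were 36.8% and 57.9%, against 30.3% and 33.4% of all features, so the first was near that share. Where a role had 0 members called higher in a comparison on the deposited scale, limma also gave 0 at an unadjusted p under 0.05.

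*Hnrnpk* (ENSMUSG00000021546, chr13:58391142-58403343, minus strand), a binder of stretches rich in C, had the highest mean of all 46 genes, with 2548, 2479 and 2095 TPM in the GMP libraries, 1459.5, 1464 and 1498 TPM in the preNeu libraries and 788, 813 and 1190.1 TPM in the matNeu libraries. The stages did not overlap, with matNeu replicate 3 nearest to the preNeu libraries. It fell at the first step (log2 change −0.68 with SE 0.15, adjusted p = 0.00298 by limma) and at the second (log2 change −0.69 with SE 0.15, adjusted p = 0.00237 by limma), and neither call held under the median ratio (−0.25 and −0.29), nor the first without the top 50 features (−0.28). *Hnrnpf*, which binds runs of G, went from 1546 ± 17.7 to 1346 ± 130.1 TPM without a call, except without preNeu replicate 3 (−0.28, adjusted p = 0.0275), and then fell to 618 ± 34.8 TPM. *Hnrnpa2b1* went from 1742 ± 189.7 to 1349 ± 61.2 and 259 ± 33.8 TPM. Its fall at the first step (log2 change −0.36 with SE 0.12, adjusted p = 0.0269 by limma) was lost without GMP replicate 1 (−0.32, adjusted p = 0.085) or 2 (−0.31, adjusted p = 0.0906) or without preNeu replicate 1 (−0.33, adjusted p = 0.076) or 2 (−0.36, adjusted p = 0.0659). It was also lost with no filter (adjusted p = 0.0578) or no variance trend (adjusted p = 0.0921), and turned to 0.07 under the median ratio and 0.04 without the top 50 features.

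*Hnrnpa1* (ENSMUSG00000046434, chr15:103240432-103246692, plus strand), a general repressor of splice sites that shuttles between nucleus and cytoplasm, fell further than any other hnRNP. It was at 821, 852 and 710.0 TPM in the GMP libraries, 163, 169 and 184 TPM in the preNeu libraries and 11.02, 10.7 and 16.0 TPM in the matNeu libraries. The stages lay far apart, and the mean of matNeu cells was 63.1-fold below that of GMPs. Its log2 change was −2.20 with SE 0.16, adjusted p = 1.56e-06 by limma, at the first step and −3.69 with SE 0.16, adjusted p = 1.27e-08 by limma, at the second. The table holds 8 nearly identical pseudogenes, which summed to 145 ± 26.7, 46.1 ± 8.66 and 8.61 ± 4.67 TPM. Together with them the gene had means of 939, 217.9 and 21.2 TPM, with no overlap between stages.

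*Hnrnpab* (ENSMUSG00000020358, chr11:51600100-51606847, minus strand), related to the A and B group, was at 65.5, 118 and 125 TPM in the GMP libraries, 88.9, 91.1 and 70.9 TPM in the preNeu libraries and 6.82, 5.84 and 9.49 TPM in the matNeu libraries. GMP and preNeu libraries overlapped and all matNeu libraries lay well below them. It was not called at the first step (log2 change −0.25 with SE 0.26, adjusted p = 0.436 by limma) and fell at the second (log2 change −3.35 with SE 0.26, adjusted p = 9.33e-07 by limma). *Hnrnpr*, which also fell at the first step, fell at the second from 93.0 ± 1.24 to 13.3 ± 1.25 TPM. *Hnrnpd*, which binds AU-rich mRNA, was called at the second step only, from 39.4 ± 1.27 to 10.7 ± 2.97 TPM. *Hnrnpa3* fell at both steps, from 120.2 ± 10.999 to 75.6 ± 9.90 and 22.6 ± 8.49 TPM. Its first fall (log2 change −0.67 with SE 0.22, adjusted p = 0.0252 by limma) was not called under the median ratio (−0.24), without the top 50 features (−0.27) or with no filter (adjusted p = 0.0514), nor without GMP replicate 2 (−0.59, adjusted p = 0.0812) or preNeu replicate 2 (−0.62, adjusted p = 0.072) or 3 (−0.60, adjusted p = 0.076). Its nearly identical pseudogenes held 33.5 ± 9.37 TPM in matNeu cells, more than the gene itself. Together with them it had means of 140.8, 87.2 and 56.1 TPM, a smaller fall with no overlap between stages.

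*Hnrnpll* (ENSMUSG00000024095, chr17:80029487-80062334, minus strand), a relative of *Hnrnpl* known for its role in the splicing of CD45 in lymphocytes, peaked in preNeu cells. It was at 21.5, 22.9 and 47.7 TPM in the GMP libraries, 78.7, 82.3 and 73.4 TPM in the preNeu libraries and 18.8, 26.9 and 46.4 TPM in the matNeu libraries. All preNeu libraries lay above all others, while GMP and matNeu libraries overlapped, with 1 high library in each. It rose at the first step (log2 change 1.41 with SE 0.34, adjusted p = 0.00468 by limma), by 2.54-fold in the mean, and fell at the second (log2 change −1.41 with SE 0.34, adjusted p = 0.00405 by limma).

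*Hnrnpul1* (ENSMUSG00000040725, chr7:25721165-25754757, minus strand), related to the scaffold protein HNRNPU, also had its highest mean in preNeu cells, with 27.0, 28.9 and 34.8 TPM in the GMP libraries, 42.9, 45.5 and 44.0 TPM in the preNeu libraries and 19.9, 16.5 and 25.7 TPM in the matNeu libraries. All preNeu libraries lay above all GMP libraries and all matNeu libraries below them. The rise (log2 change 0.54 with SE 0.19, adjusted p = 0.0292 by limma) was lost without GMP replicate 1 (0.46, adjusted p = 0.0963) or 2 (0.51, adjusted p = 0.0793) or without preNeu replicate 1 (0.56, adjusted p = 0.0572), 2 (0.52, adjusted p = 0.0783) or 3 (0.54, adjusted p = 0.0615). The fall at the second step was larger (log2 change −1.08 with SE 0.19, adjusted p = 0.000451 by limma). Its lower level in matNeu cells than in GMPs (log2 change −0.54 with SE 0.19, adjusted p = 0.0216 by limma) turned to 0.26 under the median ratio, and was lost without the top 50 features (−0.38, adjusted p = 0.0752), GMP replicate 3 (−0.44, adjusted p = 0.086), or matNeu replicate 1 (−0.52, adjusted p = 0.0512) or 2 (−0.40, adjusted p = 0.0817).

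*Hnrnph2* (ENSMUSG00000045427, chrX:134601179-134607060, plus strand), a binder of runs of G like *Hnrnph1*, had overlapping levels throughout, with 188, 179 and 164 TPM in the GMP libraries, 138, 139 and 178 TPM in the preNeu libraries and 161, 175 and 204 TPM in the matNeu libraries. The 3 stages overlapped, and no comparison was called on the deposited scale. The second step was 0.25 with SE 0.14, adjusted p = 0.142 by limma, it was called without preNeu replicate 3 (0.37, adjusted p = 0.04), and under the median ratio *Hnrnph2* was higher in matNeu cells than in preNeu cells (0.65) and than in GMPs (0.85). *Hnrnph1*, by contrast, fell at both steps, from 569.9 ± 30.6 to 256 ± 55.3 and 112 ± 10.1 TPM.

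*Hnrnpc*, which counts the length of nascent RNA and binds runs of U, fell at the first step and was not called at the second, with 508 ± 29.7, 224 ± 6.51 and 259.8 ± 32.4 TPM. Its second step (log2 change 0.21 with SE 0.12, adjusted p = 0.146 by limma) was called without matNeu replicate 2 (0.31, adjusted p = 0.0324) and under the median ratio (0.61). Its lower level in matNeu cells than in GMPs was not called under the median ratio (−0.14). *Hnrnpl*, which binds CA repeats, had 62.7 ± 4.27, 42.1 ± 7.44 and 45.5 ± 5.48 TPM. Its fall at the first step (log2 change −0.57 with SE 0.17, adjusted p = 0.012 by limma) was not called under the median ratio (−0.15) or without the top 50 features (−0.18). It was lower in matNeu cells than in GMPs (log2 change −0.46 with SE 0.17, adjusted p = 0.0261 by limma), a call lost without GMP replicate 1 (−0.43, adjusted p = 0.069) or 3 (−0.43, adjusted p = 0.0747) or matNeu replicate 2 (−0.36, adjusted p = 0.0926) or without the top 50 features (−0.29, adjusted p = 0.109), and turned to a call higher under the median ratio (0.36). *Hnrnpul2* was low throughout, with 6.53 ± 0.449, 6.61 ± 0.787 and 3.55 ± 1.00 TPM. Its fall at the second step (log2 change −0.76 with SE 0.24, adjusted p = 0.0194 by limma) was lost under the median ratio (−0.44) and without preNeu replicate 1 (−0.70, adjusted p = 0.0536) or 2 (−0.72, adjusted p = 0.0532) or matNeu replicate 1 (−0.70, adjusted p = 0.062) or 2 (−0.64, adjusted p = 0.0664). Its lower level in matNeu cells than in GMPs was lost under the median ratio (−0.06) and without GMP replicate 1 (−0.71, adjusted p = 0.0521) or matNeu replicate 1 (−0.69, adjusted p = 0.0532) or 2 (−0.63, adjusted p = 0.0578).

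The remaining hnRNPs fell at both steps. *Hnrnpm*, which binds stretches rich in G and U, went from 354 ± 31.1 to 167 ± 9.65 and 69.5 ± 13.6 TPM. *Hnrnpdl*, a relative of *Hnrnpd*, went from 229.9 ± 29.6 to 129 ± 14.0 and 85.8 ± 6.91 TPM, *Hnrnph3* from 114 ± 8.21 to 68.8 ± 4.36 and 43.4 ± 2.59 TPM, and *Hnrnpa0* from 27.0 ± 5.38 to 10.47 ± 2.42 and 4.91 ± 0.804 TPM. Under the median ratio, the falls of *Hnrnph3* at both steps (−0.29 and −0.26) and those of *Hnrnpdl* and *Hnrnpa0* at the second (−0.18 and −0.60) were not called.

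**Figure D3:**
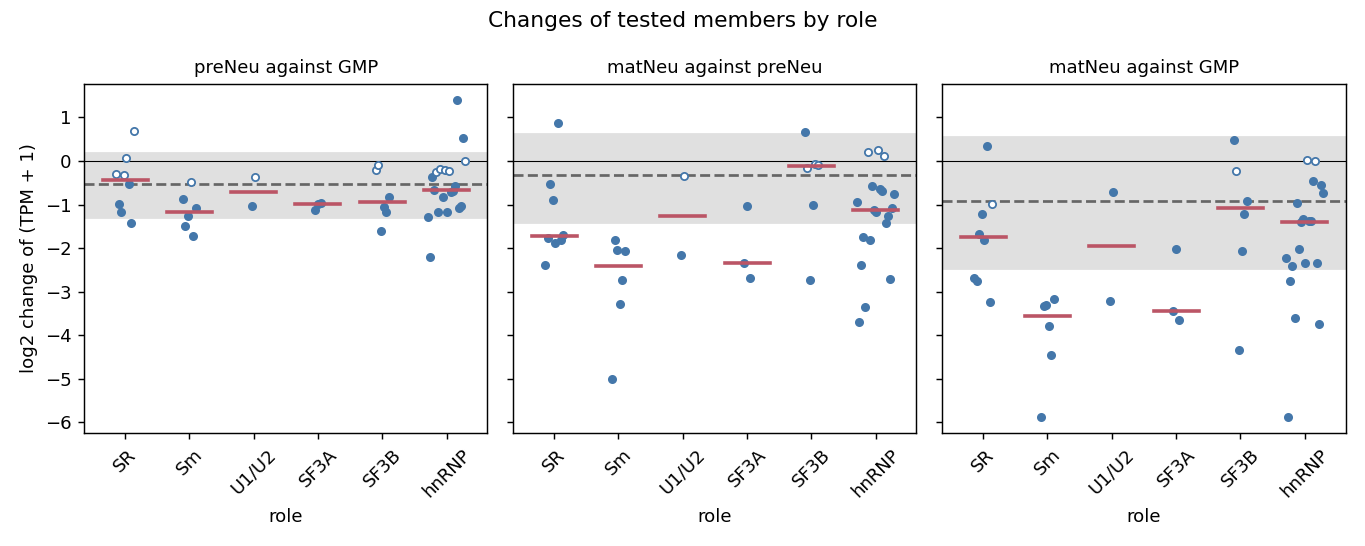
Log2 change of (TPM + 1) of each tested member in the 3 comparisons, by role, with filled points for members called at an adjusted p of at most 0.05, open points for the others, and red bars for the median of a role. The dashed line and grey band give the median and the quartiles of all features tested (medians −0.52, −0.32 and −0.92), and in matNeu cells against GMPs the Sm median of −3.55 lies lowest.

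A further 6 genes with the same prefixes were left out by the table's own type field, which gives *Srsf3*, *Srsf6*, *Snrpa* and *Snrpb* as retained_intron and *Snrpa1* and *Hnrnpu* as processed_transcript, although all 6 encode proteins of these families. All 6 were called lower in each comparison. Under the median ratio *Hnrnpu* (−0.07), *Snrpb* (−0.45) and *Srsf3* (−0.25) were not called at the first step. *Srsf3*, the smallest SR protein, went from 959 ± 80.3 to 598 ± 38.9 and 40.3 ± 11.4 TPM, and *Snrpa1*, a U2 protein, from 146 ± 17.5 to 43.0 ± 5.01 and 1.48 ± 0.390 TPM. *Snrpb*, an Sm protein, went from 622 ± 79.4 to 340.4 ± 70.9 and 96.4 ± 18.7 TPM. With them counted, chosen after seeing the data, 35, 41 and 44 of 50 tested genes were lower and 2 higher in the comparisons in the order above. Under the median ratio 24, 35 and 37 were lower and 4, 6 and 5 higher. From GMPs to matNeu cells, the summed TPM of SR genes was then 3.43-fold lower instead of 2.26-fold, and that of the U1 and U2 genes 16.6-fold instead of 4.17-fold.

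Near copies elsewhere in the genome bear on the levels, since short reads of a gene and its copy are hard to tell apart. Of the 46 members, 18 share at least 200 bases at 95% identity or more with a pseudogene, and for 13 of these a copy reached 1 TPM in some library. Beside *Snrpf*, *Hnrnpa1* and *Hnrnpa3*, the copies of *Snrpg* held 53.1, 18.2 and 1.12 TPM in the 3 stages, against 58.2, 26.9 and 6.25 TPM for the gene, and those of *Snrpd2* held 6.80, 0.418 and 0.402 TPM against 18.0, 5.55 and 0.882 TPM. With copies added, the order of the stages changed for no member but *Snrpf* and *Snrpc*, whose preNeu and matNeu libraries then overlapped.

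SR proteins depend on phosphorylation, by SRPK kinases in the cytoplasm and CLK kinases in the nucleus, and enter the nucleus with transportins. Of 11 such genes, all tested, 6 fell and 1 rose at the first step and 4 fell and 4 rose at the second (under the median ratio 3 and 2, then 4 and 5). In percent, 54.5% and 36.4% were called lower at the 2 steps, against 44.3% and 39.8% of all features, and under the median ratio 27.3% and 36.4%, against 30.3% and 33.4%. Those called higher were 9.09% and 36.4%, against 14.7% and 22.9% of all features. Under the median ratio they were 18.2% and 45.45%, against 21.7% and 31.4%. *Srpk2* was at 46.5, 33.7 and 53.4 TPM in the GMP libraries, 65.9, 75.4 and 71.5 TPM in the preNeu libraries and 237, 276 and 294 TPM in the matNeu libraries. Every stage lay above the one before, with log2 changes of 0.68 with SE 0.17, adjusted p = 0.00577 by limma, and 1.90 with SE 0.17, adjusted p = 3.09e-06 by limma. *Clk1* was at 281, 245 and 232 TPM in the GMP libraries, 169, 181 and 190.4 TPM in the preNeu libraries and 619, 580.3 and 726 TPM in the matNeu libraries. Its matNeu libraries lay above all others and its preNeu libraries below all others. Its fall at the first step was not called under the median ratio. It rose at the second step (log2 change 1.82 with SE 0.12, adjusted p = 3.11e-07 by limma), as did *Clk3* (log2 change 0.56 with SE 0.13, adjusted p = 0.00297 by limma) and *Clk4* (log2 change 0.58 with SE 0.21, adjusted p = 0.0333 by limma). The type field, which did not limit the pathway lists, gives *Clk1* and *Clk3* as retained_intron and *Clk4* as nonsense_mediated_decay. Whether their TPM comes from coding transcripts was not tested. *Srpk1* went the opposite way, with 94.6, 107 and 103 TPM in the GMP libraries, 37.9, 35.6 and 50.1 TPM in the preNeu libraries and 15.3, 14.7 and 12.1 TPM in the matNeu libraries. Its stages did not overlap, and its log2 change at the second step was −1.48 with SE 0.17, adjusted p = 2.12e-05 by limma. *Clk2* had 16.9 ± 0.427, 9.77 ± 0.788 and 11.6 ± 0.994 TPM and fell at the first step, though not under the median ratio (−0.33), which made it higher at the second (0.60). The median ratio also made *Clk3* higher at the first step (0.59). *Prpf4b*, which phosphorylates the spliceosome, fell over both steps from 49.0 ± 6.15 to 10.8 ± 3.78 TPM, with the first step not called under the median ratio (−0.58). *Srpk3* and *Dyrk1a* were not called in any comparison on the deposited scale, with means in the 3 stages of 4.15 ± 2.64, 2.76 ± 3.33 and 5.91 ± 5.22 TPM and of 15.2 ± 3.36, 16.5 ± 1.73 and 15.3 ± 2.54 TPM. *Dyrk1a* was called higher in matNeu cells than in GMPs under the median ratio (0.80). *Tnpo3*, the transportin of SR proteins, fell from 122 ± 9.63 to 24.2 ± 1.10 TPM.

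The other genes of the pathway were counted from lists. The shares of all features called lower at the 2 steps were 44.3% and 39.8%, or 30.3% and 33.4% under the median ratio, and those called higher 14.7% and 22.9%, or 21.7% and 31.4%. Of 12 genes that assemble Sm rings, 10 fell at the first step and 8 at the second, where 1, *Wdr77*, rose (under the median ratio 9, then 7 with 2 risen). *Prmt5*, which methylates Sm proteins, was at 147, 159 and 142 TPM in the GMP libraries, 8.66, 16.8 and 16.0 TPM in the preNeu libraries and 2.38, 1.65 and 0.567 TPM in the matNeu libraries. Its stages did not overlap, and its log2 change from GMPs to matNeu cells was −5.96 with SE 0.31, adjusted p = 2.42e-08 by limma. *Wdr77*, its partner in the methylosome, fell from 225 ± 28.8 to 36.9 ± 3.84 TPM and then rose to 129 ± 18.2 TPM. *Clns1a*, the chaperone of Sm proteins in that complex, fell over both steps, from 348 ± 18.3 to 9.08 ± 2.76 TPM. Of this list *Gemin4* had 53.5 ± 15.4, 4.28 ± 1.23 and 5.42 ± 8.91 TPM and was called at the first step, and *Gemin6*, with 65.7 ± 19.6, 10.95 ± 2.11 and 0.363 ± 0.408 TPM, fell at both. Of 8 LSm genes, which form the related rings of U6 and of mRNA decay, 5 fell at the first step, where under the median ratio 1 fell and 1 rose. In percent, 62.5% were called lower there, or 12.5% under the median ratio, the latter below the 30.3% of all features. All 8 fell at the second step (7 under the median ratio), *Lsm7* from 8.80 ± 0.940 to 0.384 ± 0.665 TPM. The log2 change was −1.09 for *Lsm4* at the first step, not called under the median ratio, −3.44 for *Lsm5* at the second and −3.56 for *Lsm6* over both.

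Of 11 genes of U1 and of the recognition of the end of the intron, 10 fell at the first step, 5 of them under the median ratio, and 9 at the second, where the median ratio gave 9 and 1 risen, among them *U2af1*, which reads the final AG, from 101 ± 4.68 to 29.5 ± 8.35 TPM. *U2surp* fell more at that step (log2 change −2.13), and *Luc7l* (−1.60) and *Phf5a* (−1.36) fell most at the first. Of 17 genes of the particle of U4, U5 and U6, 12 fell and 1, *Usp39*, rose at the first step, and 11 fell at the second (under the median ratio 7 and 1, then 9 and 1), *Usp39* among them (log2 change −3.10 with SE 0.14, adjusted p = 1.47e-08 by limma). *Prpf31* (−2.19) and *Snu13* (−1.72) fell most at the first step, and *Snrnp40* (−3.08) fell nearly as much as *Usp39* at the second. Of 17 genes of the PRPF19 complex and the spliceosome helicases, 15 fell at the first step, 6 of them under the median ratio, and 10 fell and 2 rose at the second (8 and 6 under the median ratio). *Prpf19*, a ubiquitin ligase at its centre, went from 127 ± 5.27 to 30.8 ± 3.90 and 3.34 ± 0.730 TPM. Next to it, *Dhx35* had the lowest called change at the first step (−1.68), *Dhx15* at the second (−2.55) and *Isy1* over both (−3.29). The 2 that rose were *Syf2*, from 58.9 ± 8.01 to 229 ± 6.72 TPM, and the helicase *Dhx38*, from 31.4 ± 5.00 to 80.2 ± 11.7 TPM.

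Of 9 genes of the minor spliceosome, which removes a rare class of introns, 4 fell (44.4%) and 1, *Zrsr1*, rose at the first step and 3 fell (33.3%) at the second, shares near or below those of all features. Under the median ratio 1 fell and 1 rose, then 3 fell and 3 rose. *Snrnp25* fell over both steps, from 56.0 ± 5.58 to 2.08 ± 1.12 TPM. The log2 change was −0.91 for *Snrnp48* at the first step, not called under the median ratio, −2.76 for *Snrnp35* at the second, and 0.72 for *Zrsr1* at the first. Of 5 genes of the exon junction complex, 1 fell at the first step and 4 at the second (1 and 3 under the median ratio), with *Magohb* at a log2 change of −3.04 and *Eif4a3* going from 273 ± 20.98 to 61.2 ± 8.27 TPM. Of 33 other RNA-binding regulators, 32 were tested, of which 19 fell and 1 rose at the first step and 20 fell and 5 rose at the second (under the median ratio 6 and 3, then 16 and 7). In percent of those tested, 59.4% and 62.5% were called lower, against 44.3% and 39.8% of all features. Under the median ratio it was 18.75% and 50%, against 30.3% and 33.4%. The first of these was below the share of all features, and the list's median log2 change at that step, −0.52, was that of all features. *Ptbp1*, a repressor of exons, went from 403 ± 57.6 to 197 ± 16.1 and 17.6 ± 3.63 TPM. *Tardbp* fell at both steps, from 340.0 ± 15.8 to 37.2 ± 6.56 TPM, and *Ptbp3* was higher in matNeu cells than in GMPs (log2 change 0.53 with SE 0.15, adjusted p = 0.00907 by limma). *Mbnl3*, of the muscleblind family, rose to 142 ± 10.7 TPM in preNeu cells from 45.4 ± 8.80 TPM in GMPs and fell to 12.3 ± 5.82 TPM in matNeu cells. *Mbnl2* rose at the second step from 70.2 ± 2.08 to 148 ± 16.1 TPM, as did *Rbm39*, from 374 ± 24.4 to 705 ± 67.4 TPM.

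Peak lists show where chromatin at the members' promoters was marked, open or bound by CHD4. Promoters were taken from 2 kb before to 500 bp after the annotated start of transcription, and shares carry 95% Wilson intervals, which cover counting error only. With 1 library per list, no difference between lists could be tested against replicates, and the read depth is unknown. The genes expressed in GMPs, set beside the members here and for promoter sequences, were not matched to the members' higher TPM. The part of level in these shares was not tested. H3K4me2, a mark of active and poised promoters, had a peak at 45 of 46 members in GMPs (97.8%), 44 in preNeu cells (95.7%) and 43 in matNeu cells (93.5%), against 89.0%, 91.2% and 90% of protein-coding genes at 1 TPM or more in GMPs. *Snrpn* had none in any stage, *Sf3b5* had 1 in GMPs alone, and *Hnrnpm* lacked it in matNeu cells. At −log10 q-values from 5 upward the shares in the 3 stages were 32.6%, 95.7% and 91.3%, and counting a peak only where its centre lay in the promoter gave 69.6%, 30.4% and 50.0% in the 3 stages. Of coding genes expressed in GMPs, 37.1%, 88.8% and 87.0% had such a q-value and 57.5%, 49.0% and 54.7% such a centre.

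Open chromatin was listed identically for preNeu and matNeu cells, so the lists count as 1. It had a peak at 39 of 46 members (84.8%, 71.8% to 92.4%), against 64.0% of coding genes expressed in GMPs and 34.7% of all coding genes, and at 67.4% of members when peaks needed a −log10 q of 5 or more, against 39.4% of those expressed. In all, 37 members had H3K4me2 in each stage and open chromatin but no CHD4 peak, among them *Hnrnpa1*, *Snrpd1* and *Sf3b3*, which were among the members with the lowest changes, as well as *Srsf5*. The share of other genes with this combination was not counted, so it is not shown to be particular to the members. *Hnrnpf*, *Snrpc*, *Snrpf* and *Srsf12* had the mark in each stage without a peak of open chromatin.

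CHD4 had a peak at 2 of 46 member promoters in wild type GMPs (4.35%, 1.20% to 14.5%), against 12.9% of coding genes expressed in GMPs and 8.63% of all coding genes. These were *Hnrnpll*, with a peak at chr17:80062875-80063099 and a fold enrichment of 8.68 over its background, and *Sf3b1*, with a peak at chr1:55028933-55029194 and a fold enrichment of 6.04. The median fold enrichment of all 35790 peaks of that list was 7.72. The list is far longer than the set of CHD4 peaks that the paper reports for these cells, so the shares here do not describe that set. *Hnrnpll* was the member with the highest change from GMPs to preNeu cells, and *Sf3b1* rose in matNeu cells. A relation of CHD4 to these changes was not tested. The peak of *Sf3b1* lay outside a promoter of 1 kb on either side of the start, which left 1 member (2.17%). In *Gfi1*-/- GMPs, whose list held 7316 peaks, no member promoter had a CHD4 peak, which allows up to 7.71%. The shares were 2.33% of coding genes expressed in GMPs and 1.70% of all coding genes.

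Promoter sequences of 300 bases, 250 before and 50 after the start, were in the RefSeq table for 41 of the 46 members, with 57 starts, and for 32851 starts in all. *Hnrnpd*, *Hnrnpf*, *Sf3a1*, *Sf3a2*, *Sf3a3*, *Sf3b2*, *Sf3b3*, *Sf3b6*, *Snrpb2*, *Snrpc*, *Snrpe*, *Snrpg*, *Srsf11*, *Srsf4*, *Srsf5* and *Srsf7*, 16 genes from every role, held CCGGAAG, a core bound by ETS factors, on either strand. It was in 36.8% of member promoters, 18.4% of promoters of coding genes expressed in GMPs and 8.86% of all promoters. GGGCGG, the core of SP factors, was in 68.4% of member promoters against 61.8% of expressed and 35.7% of all, and CCAAT in 47.4% against 38.5% and 37.4%. CACGTG, the E-box bound by MYC, was in 8.77% against 10.1% and 7.15%. TGACGTCA was in 1.75% against 3.01% and 1.79%, and AAATCA, the core of GFI1, in 5.26% against 8.53% and 14.0%. A match is a description of the sequence, not of binding.

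Below are the promoters of *Hnrnpa1*, the hnRNP that fell most, and of *Srsf5* and *Sf3b1*, the members that rose in matNeu cells, on build GRCm38.p6 at chr15:103240147-103240446 (plus strand), chr12:80945249-80945548 (plus strand) and chr1:55027429-55027728 (minus strand), 5′ to 3′. Each match to these 6 motifs is in capitals on whichever strand it reads. *Hnrnpa1* has 4 CCAAT and 2 GGGCGG matches, and *Srsf5* has 2 of CCGGAAG and 3 of GGGCGG, of which 1 pair shares 1 base. *Sf3b1* has 2 of GGGCGG.
Hnrnpa1: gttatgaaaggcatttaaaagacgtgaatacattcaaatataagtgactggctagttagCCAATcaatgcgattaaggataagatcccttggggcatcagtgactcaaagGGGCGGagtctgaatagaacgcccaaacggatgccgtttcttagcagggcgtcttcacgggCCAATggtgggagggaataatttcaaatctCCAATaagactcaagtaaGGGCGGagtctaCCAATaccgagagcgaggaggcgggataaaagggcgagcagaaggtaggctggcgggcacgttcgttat
Srsf5: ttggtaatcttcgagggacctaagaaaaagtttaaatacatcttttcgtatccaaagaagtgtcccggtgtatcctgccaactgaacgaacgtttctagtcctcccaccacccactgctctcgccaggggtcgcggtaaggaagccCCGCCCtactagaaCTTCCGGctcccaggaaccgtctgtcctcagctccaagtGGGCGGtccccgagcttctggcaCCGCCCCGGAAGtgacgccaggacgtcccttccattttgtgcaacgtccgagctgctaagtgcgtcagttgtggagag
Sf3b1: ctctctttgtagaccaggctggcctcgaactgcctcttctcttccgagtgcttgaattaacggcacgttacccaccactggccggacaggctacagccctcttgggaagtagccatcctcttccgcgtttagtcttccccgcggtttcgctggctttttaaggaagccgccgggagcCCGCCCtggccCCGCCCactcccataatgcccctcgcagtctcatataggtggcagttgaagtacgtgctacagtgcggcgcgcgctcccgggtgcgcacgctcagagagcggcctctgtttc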

How the data were processed

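For RNA-seq, with 3 libraries from each stage, the authors' values were deposited as TPM per gene and library. The tool that made TPM is not stated: the submitters' processing notes name kallisto 0.44.0, Trimmomatic 0.36, BWA 0.7.17, MACS2 2.1.0, FastQC 0.11.5 and MultiQC 1.6, and the RNA protocol names Tophat, HTSeq and DESeq. The authors deposited for each peak a fold enrichment over background, a linear ratio, and a −log10 q-value, used to describe and filter peaks. Groups follow the sample titles, from which the cell type field differs for 13 of 18 samples. Lists for GFI1 and H3K4me3 were not used, since they hold positions that GRCm38 lacks, and the identical ATAC-seq lists count as 1. The read depth is unknown.

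Genes were tested on log2(TPM + 1) with limma 3.58.1 (R 4.3.3), with a term for stage alone, a variance trend and Benjamini-Hochberg adjustment, two-sided, at 0.05. In simulated data with 200 changed features, the fit recovered 134, and 10 of its 144 calls were false. Far fewer features changed there than were called in the deposited data. Tables were handled with Python 3.11.15, pandas 2.3.3, numpy 2.4.6 and scipy 1.17.1, copies found with BLAST 2.17.0 and plots drawn with matplotlib 3.10.9. Promoters are from GENCODE M21. With 3 libraries against 3, an exact two-sided permutation test cannot go below 0.1. The members, the roles and the lists of pathway and marker genes were chosen with earlier results of these data known. Named are the members called against the direction of the group, the 3 highest and 3 lowest changes of each comparison, the highest mean of each role, members whose call turns with a setting, and of the pathway lists the SR protein kinases and the called genes with the 2 largest changes each way in a comparison, with the remaining hnRNPs and a few others chosen after their values were seen. Alternatives were other scalings, filters and pseudocounts, coding genes only, the compared groups only, no trend, a replicate block, a minimum log2 change of 1, each library left out, and other promoter and peak definitions. Sums of the B cell and erythroid marker lists are not reported here. Counting the 6 genes of another type was added after seeing the data.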

Additional observations from a re-analysis of the deposited data

How the results depend on the processing

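Calls of 2, 2 and 2 members higher and 29, 35 and 38 lower (preNeu against GMP, matNeu against preNeu, matNeu against GMP) stayed within 1.5 times with other pseudocounts, filters and coding genes only. Members higher numbered 4, 6 and 5 under the median ratio, 4 in preNeu against GMP without the top 50 features, 1, 0 and 0 with a log2 change of at least 1 (17 lower in preNeu against GMP) and 1 in matNeu against GMP without the trend. With no filter, where all 46 members were tested, their median minus that of all features was −0.59 in preNeu against GMP and −1.88 in matNeu against GMP. Leaving out each library gave 1 to 3, 2 to 3 and 1 to 2 higher, 26 to 29, 33 to 35 and 35 to 39 lower, and median differences of −0.37 to −0.25, −1.18 to −0.84 and −1.31 to −1.08. The replicate number as a block gave 2 and 29, 2 and 35, and 2 and 39 calls higher and lower, with *Srsf9* added (−0.99) and no other call changed. Between libraries of different stages with the same number, correlations of residuals lay between −0.0394 and 0.123. Only that of preNeu and matNeu replicate 3 was over 0.1. For libraries with different numbers they lay between −0.128 and 0.0706.

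Among members called before or after, signs turned under the median ratio for *Hnrnpa2b1* (0.0653) and *Sf3b2* (0.34) in preNeu against GMP, *Sf3b2* (0.25) in matNeu against preNeu, and *Hnrnpl* (0.36), *Hnrnpul1* (0.26), *Sf3b2* (0.60) and *Snrpc* (0.0715) in matNeu against GMP, and without the top 50 features for *Hnrnpa2b1* (0.0378) and *Sf3b2* (0.32) in preNeu against GMP. The share of member promoters with H3K4me2 was 32.6% in GMPs (95.7% and 91.3% in preNeu and matNeu cells) with −log10 q of at least 5, and 69.6%, 30.4% and 50.0% in the 3 stages by peak centres. For open chromatin it was 67.4% with −log10 q of at least 5. The cause of these shifts was not tested.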
